A study of Mus musculus with 10 samples.

Results

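Expression of 37 genes of glutathione and thioredoxin metabolism and of the NRF2 response was examined in whole lung of mice lacking p53 and of wild-type mice. The genes were taken from a list of names, chosen with earlier results of these data known, and matched to the array probes by gene symbol. All 37 were found, with 55 probes, among the 27670 genes on the array. All 37 were well above background on all 10 arrays, so none was lost to the filter that left 21116 genes for testing. Both groups were male mice labelled C57BL/6J, 8 weeks old, with lungs collected after 30 min of aerosolised saline. One group carried the genotype p53 null (5 mice, 1 array each) and the other was wild type (5 mice, 1 array each). The series describes the 5 arrays of a group as biological replicates, and p-values measure the spread between these arrays. The labels do not name the p53 allele, and whole lung is a mixture of cells, in which fewer cells of a type and less RNA per cell cannot be told apart.

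Glutathione is a small thiol made in 2 steps, of which the first, joining glutamate to cysteine, is catalysed by a catalytic subunit (Gclc) and a modifier subunit (Gclm). Glutathione peroxidases use it to reduce peroxides, and glutathione transferases couple it to reactive compounds, which airway and alveolar cells meet in inhaled air. The thioredoxin system is a parallel thiol route that reduces disulphides with NADPH. The transcription factor NRF2, encoded by Nfe2l2, is marked for destruction by KEAP1 until oxidants modify KEAP1, and then binds antioxidant response elements together with a small MAF protein. Many of the 37 genes are known NRF2 targets, and p53 has been linked to the control of cellular redox balance.

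Levels are given as log2 signal relative to each array's 75th percentile, so a level compares arrays for 1 probe and never 1 gene with another. A difference is the p53-null mean minus the wild-type mean on the log2 scale, with its SE. Tests were made with limma over all 21116 genes with Benjamini-Hochberg adjustment, and a gene was called at an adjusted p under 0.05. Of the 37 genes, 2 were called lower in p53-null lung, Gclc and Nfe2l2, and 2 were called higher, Ggt1 and Gstt2. That is 10.8% of them, against 7.49% of all genes tested (4.59% called higher and 2.89% called lower). The genes tested include dimmer ones than these 37. In a fit of only the genes well above background on all 10 arrays, limma called 5 of the 37, against 11.3% of all genes. Their median difference was -0.11, against 0.05 over all genes tested, and 12 of 37 differences were above 0, against 56.3% over all genes. At an unadjusted p under 0.05, limma gave 9 of the 37 (24.3%, against 27.6% of all genes tested).

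**Figure D1:**
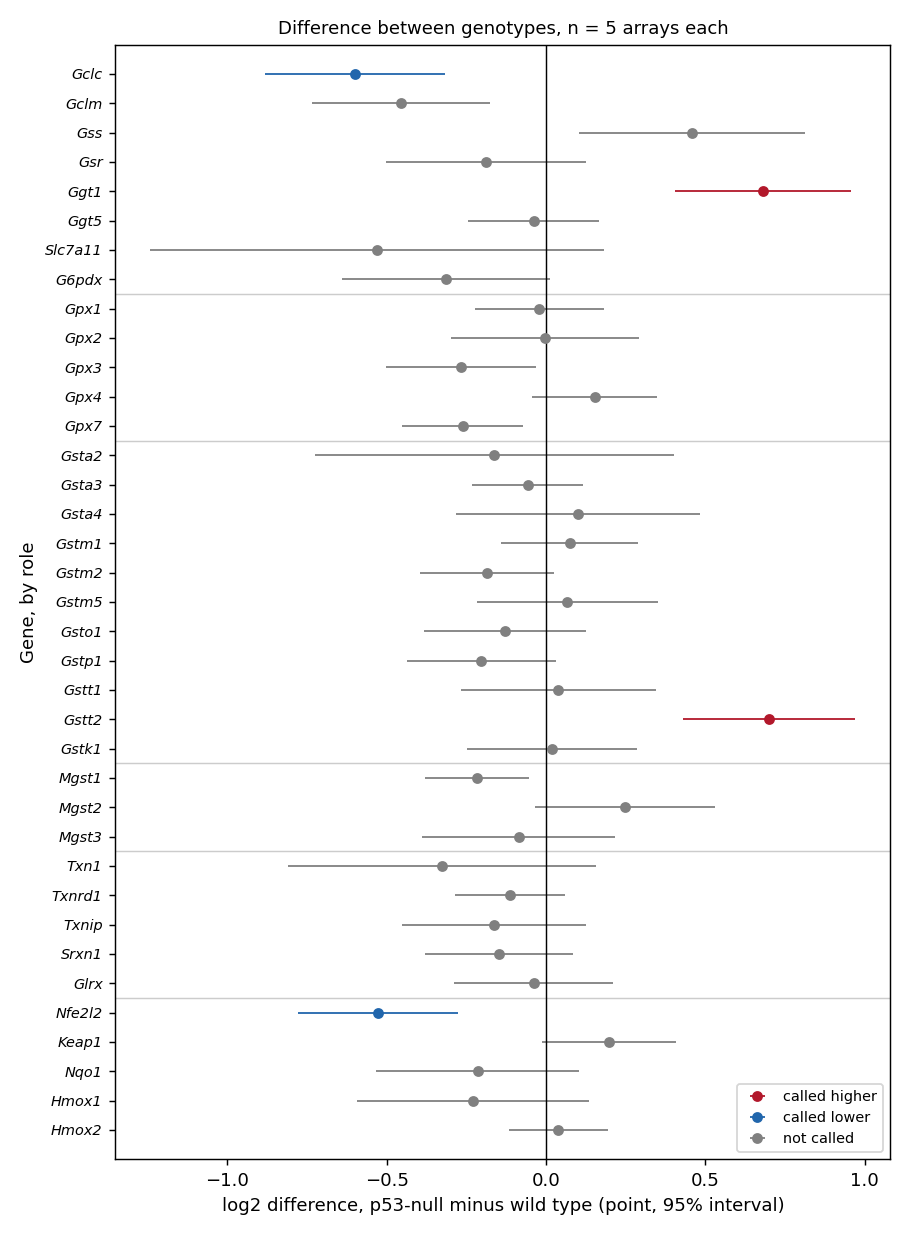
The log2 difference, p53-null minus wild type, is drawn for each of the 37 genes with its 95% interval (limma, n = 5 arrays each, 4 wild-type arrays for Gsta2), grouped by role. Gclc and Nfe2l2 lie lowest among the called genes at -0.60 and -0.53, and Ggt1 and Gstt2 lie highest at 0.68 and 0.70. Most other intervals span 0.

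The signals of these 4 genes come from the 60-base probes printed here, read from the array files in lower case, 5′ to 3′. The 4 Nfe2l2 probes are all shown because they gave different results. Coordinates are those of the files (mm7).
Gclc, chr9:77835053-77835112, plus strand: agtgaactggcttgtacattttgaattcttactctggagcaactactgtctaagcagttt
Ggt1, chr10:75241341-75241576, plus strand: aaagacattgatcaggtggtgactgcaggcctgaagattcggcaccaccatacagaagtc
Gstt2, chr10:75488112-75488171, minus strand: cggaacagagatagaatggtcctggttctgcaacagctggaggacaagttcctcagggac
Nfe2l2 probe 1, chr2:75519430-75519489, minus strand: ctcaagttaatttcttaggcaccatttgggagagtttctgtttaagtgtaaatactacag
Nfe2l2 probe 2, chr2:75519576-75519635, minus strand: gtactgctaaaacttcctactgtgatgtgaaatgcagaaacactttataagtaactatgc
Nfe2l2 probe 3, chr2:75544410-75544469, minus strand: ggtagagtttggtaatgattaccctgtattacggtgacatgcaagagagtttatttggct
Nfe2l2 probe 4, chr2:75535606-75535665, minus strand: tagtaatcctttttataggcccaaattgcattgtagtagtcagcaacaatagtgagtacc
The Ggt1 probe covers 236 bases of the genome, more than its own length. The files assign Nfe2l2 probes 1 and 2 to the RefSeq mRNA, and probes 3 and 4 to cDNA clones. Probe 3 lies 24.8 kb and probe 4 lies 16.0 kb from probe 2 in a gene of 29.2 kb (length from GRCm38).

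Trp53 itself checks the genotype labels. One of its probes, on chromosome 11 from 69671206 to 69671265, read -3.15 to -2.66 on p53-null arrays, against -1.67 to -1.43 on wild-type arrays 1 to 4 and -2.22 on wild-type array 5. Its difference was -1.28 ± 0.16 (limma adjusted p = 0.00589 over all probes). The other Trp53 probe, from 69662031 to 69662089, gave 0.31 ± 0.28 (limma adjusted p = 0.504). Its highest value, 1.24, was on wild-type array 5, and the other wild-type arrays read 0.01 or below. The part of the gene that the allele removes is not given, so the second probe may lie outside it. Wild-type array 5 stood apart from the other 4 wild-type arrays over the genome: without it 31.3% of all genes tested were called. The share of spots well above background was 71.4% to 84.0% per array. Wild-type array 3 had 719 outlier spots, against 51 to 137 on the other arrays, and a scan day of its own. All listed markers of alveolar type 2 cells (8), alveolar type 1 cells (6), club cells (7) and ciliated cells (7) were well above background on all 10 arrays. Skeletal muscle markers stood high on p53-null arrays 4 and 5 and on wild-type array 2, and squamous markers on p53-null array 5 and wild-type array 2.

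The mRNA of 1 subunit of the first enzyme of glutathione synthesis was called lower in p53-null lung. Gclc, the catalytic subunit, read 2.70, 2.70, 2.62, 2.94 and 3.07 on p53-null arrays 1 to 5, against 3.22, 3.24, 3.71, 3.52 and 3.35 on wild-type arrays 1 to 5. Every p53-null array lay below every wild-type array, with wild-type array 3 the highest. The difference was -0.60 ± 0.13 (limma adjusted p = 0.0285, 95% interval -0.88 to -0.32), or 0.66 of the wild-type level. Its modifier subunit Gclm read -2.74, -2.62, -2.51, -2.24 and -2.41 on p53-null arrays, against -1.97, -2.01, -1.85, -2.02 and -2.39 on wild-type arrays. Wild-type array 5 lay within the p53-null range, while the other 4 wild-type arrays lay above it. The Gclm difference of -0.46 ± 0.13 missed the threshold (limma adjusted p = 0.0546) and passed it without wild-type array 5 (-0.54 ± 0.10, limma adjusted p = 0.00550). In that fit 31.3% of all genes tested were called. Of 10 fits that each left out 1 array, it was the only 1 to call Gclm.

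The other genes of synthesis, recycling and breakdown did not share 1 direction. Gss, glutathione synthetase, which adds glycine in the final step, read 1.34, 1.40, 1.20, 1.47 and 1.09 on p53-null arrays, against 0.88, 0.74, 0.64, 0.56 and 1.40 on wild-type arrays. Apart from wild-type array 5, the groups did not overlap. The difference of 0.46 ± 0.16 was not called (limma adjusted p = 0.0990), but was 0.60 ± 0.10 without that array (limma adjusted p = 0.00326). The Gss interval over 10 arrays, 0.10 to 0.81, lay above 0, whereas those of Gclc and Gclm lay below it. Gsr, the reductase that regenerates glutathione, differed by -0.19 ± 0.14 (limma adjusted p = 0.420). Its other probes gave -0.21 ± 0.13 and 0.38 ± 0.17, neither called, so probes of the same mRNA lay on opposite sides of 0. G6pdx, which supplies NADPH through the pentose phosphate pathway, read 1.81 to 2.14 on p53-null arrays, against 2.30 to 2.63 on wild-type arrays 1 to 4 and 1.79 on wild-type array 5. Its difference was -0.31 ± 0.15 (limma adjusted p = 0.197) over 10 arrays and -0.44 ± 0.10 without wild-type array 5 (limma adjusted p = 0.0109). Of 10 fits that each left out 1 array, only the fit without wild-type array 5 called Gss or G6pdx. That fit called 31.3% of all genes tested. The cystine transporter gene Slc7a11 read -4.91 to -4.50 on p53-null arrays, against -5.00, -4.95, -4.05, -3.48 and -3.45 on wild-type arrays 4, 1, 2, 3 and 5. Its wild-type spread (SD 0.76) was the widest of the 37 genes, and the interval of its difference, -1.24 to 0.18, was the least precise. A second Slc7a11 probe gave -0.71 ± 0.31 (limma adjusted p = 0.172 over all probes). The other Slc7a11 probes, well above background on 3 arrays each, were not tested. Their means were -8.30 and -7.77 on p53-null arrays, against -7.08 and -8.37 on wild-type arrays.

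Ggt1, the cell-surface gamma-glutamyltransferase that breaks down extracellular glutathione, was higher in p53-null lung. It read -4.00, -3.49, -3.71, -3.82 and -3.87 on p53-null arrays, against -4.62, -4.51, -4.64, -4.34 and -4.18 on wild-type arrays. The groups did not overlap, and wild-type array 5 was the nearest to the p53-null arrays. The difference was 0.68 ± 0.12 (limma adjusted p = 0.0204, interval 0.40 to 0.96), or 1.60-fold. Its relative Ggt5, which cleaves leukotriene C4, differed by -0.04 ± 0.09 (limma adjusted p = 0.828), with an interval of -0.24 to 0.17 that excludes a rise of the Ggt1 size.

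Of 5 glutathione peroxidase genes, 0 were called by limma, and 2 had an unadjusted p under 0.05, Gpx3 and Gpx7, both lower. Over all genes tested these shares were 7.49% and 27.6%. Gpx7, an endoplasmic reticulum peroxidase, read 0.13, 0.11, 0.30, 0.42 and 0.41 on p53-null arrays, against 0.44, 0.58, 0.55, 0.55 and 0.55 on wild-type arrays. The groups did not overlap, but p53-null array 4 and wild-type array 1 almost touched. The difference was -0.26 ± 0.08 (limma adjusted p = 0.0844). Gpx3, the secreted plasma peroxidase, read 4.76, 4.75, 4.83, 4.96 and 4.69 on p53-null arrays, against 4.74, 5.04, 5.20, 5.14 and 5.21 on wild-type arrays. Only wild-type array 1 lay within the p53-null range, and the difference was -0.27 ± 0.11 (limma adjusted p = 0.137). Gpx1, the abundant cytosolic enzyme, differed by -0.02 ± 0.09, Gpx2, the epithelial form, by -0.004 ± 0.13, and Gpx4, which reduces lipid hydroperoxides in membranes, by 0.15 ± 0.09. Their intervals were -0.22 to 0.18, -0.30 to 0.29 and -0.04 to 0.35. All 3 exclude a difference as large as that of Gclc in either direction.

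Among 11 soluble glutathione transferases, 1 was called (9.09%, against 7.49% of all genes tested). Gstt2, a theta-class transferase, read 0.67, 0.50, 0.68, 0.49 and 0.67 on p53-null arrays, against 0.10, -0.28, -0.29, -0.25 and 0.24 on wild-type arrays. The p53-null arrays lay close together and above all wild-type arrays, of which 1 and 5 were the highest. The difference was 0.70 ± 0.12 (limma adjusted p = 0.0178, interval 0.43 to 0.97), or 1.62-fold. The other 10 had differences from -0.20 (Gstp1) to 0.10 (Gsta4). Gstp1, the pi-class enzyme, gave -0.20 ± 0.10 and -0.24 ± 0.10 with its 2 probes, neither called. Gstm2 gave -0.18 ± 0.09 (limma adjusted p = 0.237). The alpha-class Gsta3 and the mu-class Gstm1 differed by -0.06 ± 0.08 and 0.07 ± 0.10, with intervals of -0.23 to 0.12 and -0.14 to 0.29. The other Gsta3 probe gave -0.24 ± 0.08 (limma adjusted p = 0.0902 over all probes). Gstm5, Gsto1, Gstt1 and Gstk1 lay between -0.13 and 0.07, and their intervals reached no further than -0.38 and 0.35. Gsta2 differed by -0.16 ± 0.25, with the spot of wild-type array 3 left out of the fit as an outlier and wild-type array 2 at 0.05 against -1.14 to -0.87 on the other measured wild-type arrays. Alpha- and mu-class transferases have closely related copies that a probe may share, so values of single members of these classes are uncertain.

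The 3 membrane transferases were not called, where 7.49% of all genes tested were. Mgst1, the microsomal enzyme, read 4.62, 4.56, 4.55, 4.49 and 4.53 on p53-null arrays, against 4.75, 4.75, 4.94, 4.64 and 4.74 on wild-type arrays. The groups did not overlap but almost touched at p53-null array 1 and wild-type array 4, and the difference was -0.22 ± 0.07 (limma adjusted p = 0.0940). A second Mgst1 probe gave -0.45 ± 0.12 (limma adjusted p = 0.0527 over all probes), with wild-type array 5 inside the p53-null range. Mgst2 and Mgst3, of the same family, differed by 0.25 ± 0.13 and -0.09 ± 0.14.

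Of 5 thioredoxin and glutaredoxin genes 0 were called by limma, and 0 had an unadjusted p under 0.05, against 7.49% and 27.6% of all genes tested. Txn1, thioredoxin, read 3.61, 3.73, 3.92, 3.99 and 4.05 on p53-null arrays, against 4.42, 4.43, 4.36, 4.40 and 3.32 on wild-type arrays. Wild-type arrays 1 to 4 lay close together and above all p53-null arrays, and wild-type array 5 lay below all p53-null arrays. The difference was -0.33 ± 0.22 (limma adjusted p = 0.360) over 10 arrays and -0.54 ± 0.10 without wild-type array 5 (limma adjusted p = 0.00425). In that fit 31.3% of all genes tested were called. Of 10 fits that each left out 1 array, it was the only 1 to call Txn1. Txnrd1, the reductase that recharges thioredoxin, differed by -0.11 ± 0.08, with an interval of -0.29 to 0.06. Txnip, the thioredoxin inhibitor, differed by -0.16 ± 0.13, Srxn1, which repairs oxidised peroxiredoxins, by -0.15 ± 0.10, and Glrx, glutaredoxin, by -0.04 ± 0.11. The other Srxn1 probes gave 0.04 ± 0.14 and 0.29 ± 0.17, on the opposite side of 0.

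**Figure D2:**
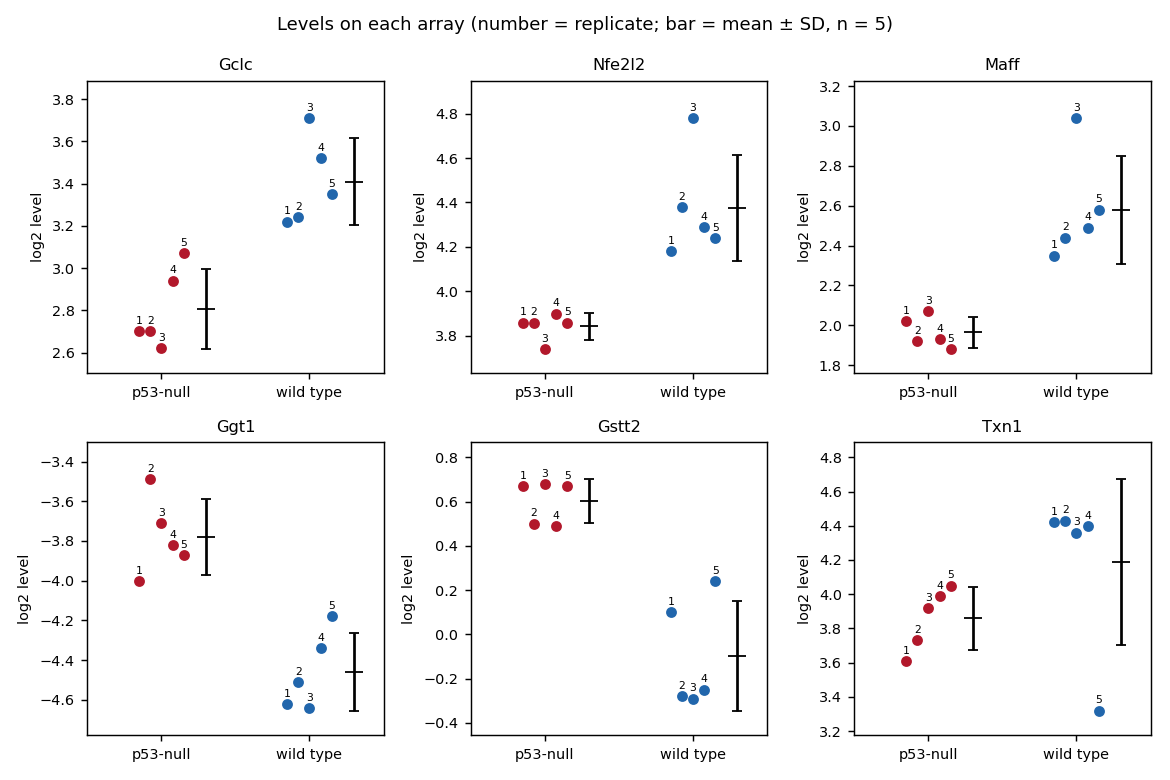
Log2 levels on each array are drawn for the 4 called genes, for Maff and for Txn1 (points numbered by replicate, bar mean ± SD, n = 5). The p53-null and wild-type points separate for Gclc, Nfe2l2, Maff, Ggt1 and Gstt2, while for Txn1 wild-type array 5 at 3.32 falls below the p53-null points and the other wild-type arrays lie at 4.36 to 4.43.

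Nfe2l2 mRNA was lower in p53-null lung by its 2 RefSeq probes. Probe 1, the brightest, read 3.86, 3.86, 3.74, 3.90 and 3.86 on p53-null arrays, against 4.18, 4.38, 4.78, 4.29 and 4.24 on wild-type arrays. The p53-null arrays were tightly grouped (SD 0.06, against 0.24 in wild type), and wild-type array 3 was the highest. The difference was -0.53 ± 0.11 (limma adjusted p = 0.0293, interval -0.78 to -0.28), or 0.69 of the wild-type level. Probe 2 averaged 3.12 ± 0.07 on p53-null arrays and 3.78 ± 0.29 on wild-type arrays (SD, n = 5 each) with no overlap, a difference of -0.66 ± 0.13 (limma adjusted p = 0.0257 over all probes).

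The probes of the cDNA clones did not follow. Probe 4 was higher in p53-null lung, at -3.70, -3.44, -3.69, -3.77 and -3.61, against -4.14, -4.78, -4.53, -4.29 and -4.30 on wild-type arrays. The groups did not overlap, and the difference was 0.77 ± 0.13 (limma adjusted p = 0.0153 over all probes). Probe 3 differed by 0.12 ± 0.19 (limma adjusted p = 0.714). With the mean of all 4 probes in place of the brightest, the Nfe2l2 difference was -0.08 and was not called. The call on Nfe2l2 thus holds for the probes of the RefSeq mRNA, and which transcripts probes 3 and 4 detect was not tested.

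**Figure D3:**
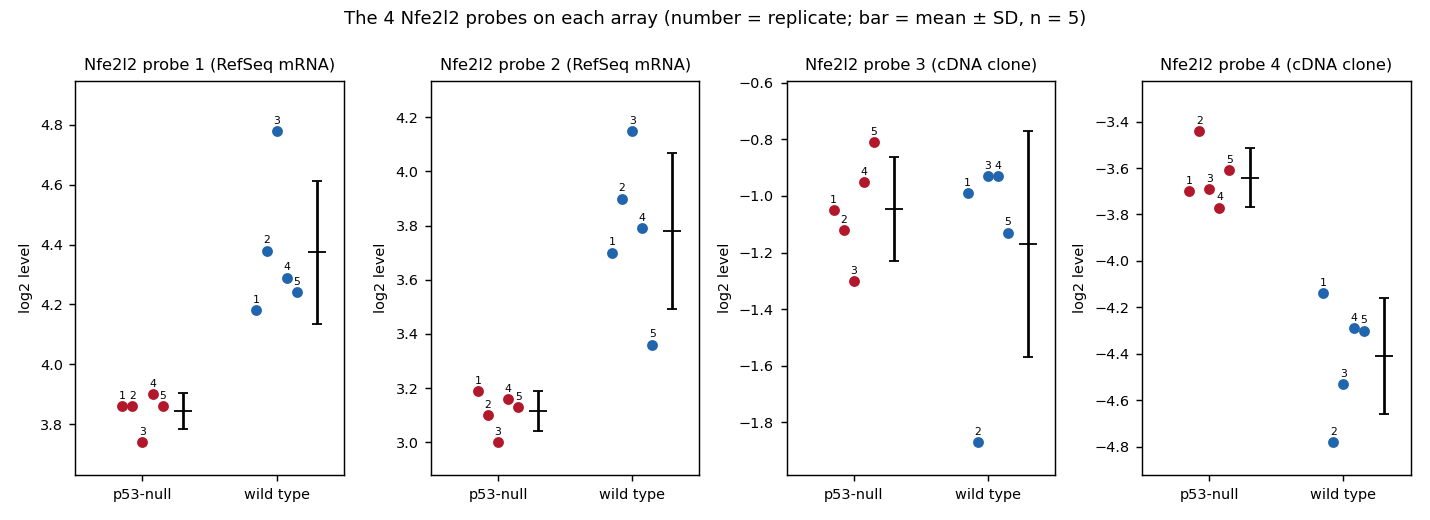
Log2 levels on each array are drawn for the 4 Nfe2l2 probes, ordered by signal (points numbered by replicate, bar mean ± SD, n = 5). Probes 1 and 2 are lower in p53-null lung by 0.53 and 0.66 on the log2 scale, probe 3 overlaps, and probe 4 is higher by 0.77.

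Keap1, the NRF2 inhibitor, read 3.05, 2.88, 2.86, 3.15 and 3.16 on p53-null arrays, against 2.86, 2.83, 2.73, 2.69 and 2.99 on wild-type arrays. The groups overlapped, and the difference of 0.20 ± 0.09 was not called (limma adjusted p = 0.204, interval -0.01 to 0.41). The NRF2 targets Nqo1, a quinone reductase, and Hmox1, the inducible haem oxygenase, differed by -0.21 ± 0.14 and -0.23 ± 0.16 (limma adjusted p = 0.361 and 0.395). Their intervals were -0.53 to 0.10 and -0.59 to 0.14. Hmox2, the constitutive oxygenase, differed by 0.04 ± 0.07.

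A second list held 54 further genes of the same pathways, of which 52 were tested. Of these 0 were called higher and 1 lower (1.92%, against 7.49% of all genes tested), and 11 had an unadjusted p under 0.05 (21.2%, against 27.6%). The gene called was Maff, encoding a small MAF protein of the family that pairs with NRF2. It read 2.02, 1.92, 2.07, 1.93 and 1.88 on p53-null arrays, against 2.35, 2.44, 3.04, 2.49 and 2.58 on wild-type arrays. The groups did not overlap, and wild-type array 3 was again the highest. The difference was -0.62 ± 0.13 (limma adjusted p = 0.0260). Without wild-type array 3, which had the most outlier spots, it was -0.50 ± 0.08 (limma adjusted p = 0.0308). In that fit Nfe2l2 differed by -0.43 ± 0.07 (limma adjusted p = 0.0340), and Gclc, at -0.525 ± 0.12, was not called (limma adjusted p = 0.0675). The median difference over the 52 genes was 0.004, against 0.05 over all genes tested.

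Sequence upstream of the genes was searched for the antioxidant response element core, TGACNNNGC, on both strands, in RefSeq windows from 250 bases before to 50 after each gene start (GRCm38). Windows were given for 31 of the 37 genes, and 9 of the 31 held the core (29.0%), against 14.0% of all genes with a window. Of these 9, 1 was called lower (Nfe2l2), 1 higher (Ggt1) and 7 were not called. Over all genes tested 7.49% were called, and the share among all genes with a core was not counted. None of the 22 genes with a window and no core was called. No window was available for the other 6 genes, of which 1 was called lower (Gclc), 1 higher (Gstt2) and 4 were not called. Since these called genes could not be searched, the counts do not show whether a core goes with a call. Sequence more than 250 bases before or 50 after a gene start was not searched, so a window without a core does not exclude a core elsewhere. The cores are shown with up to 10 bases on either side, on the strand that reads TGAC, with the core in capitals (RefSeq, GRCm38.p6). They are shown so that the variable bases can be compared between called and uncalled genes.
Nfe2l2, chr2:75704885-75704913: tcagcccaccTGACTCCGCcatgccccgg
Ggt1, chr10:75564163-75564181: cttgggcatcTGACACAGC
Ggt1, chr10:75568616-75568644: tccccagcagTGACCCAGCtcctcccttc
Ggt1, chr10:75571467-75571495: gtcacaagccTGACGCTGCgcctccttgc
Gclm, chr3:122245413-122245441: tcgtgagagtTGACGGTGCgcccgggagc
Gsta3, chr1:21240454-21240482: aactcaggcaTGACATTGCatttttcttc
Gstm5, chr3:107895802-107895830: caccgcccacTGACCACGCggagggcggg
Mgst1, chr6:138140461-138140489: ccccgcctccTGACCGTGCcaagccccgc
Txnrd1, chr10:82859104-82859132: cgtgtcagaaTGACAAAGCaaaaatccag
G6pdx, chrX:74428919-74428947: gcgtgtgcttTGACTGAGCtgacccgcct
Srxn1, chr2:152105542-152105570: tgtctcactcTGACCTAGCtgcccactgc
The whole Nfe2l2 window, chr2:75704614-75704913 on the minus strand, is printed because this gene was called and its own window holds a core, which begins at position -240 from the gene start.
Nfe2l2 window: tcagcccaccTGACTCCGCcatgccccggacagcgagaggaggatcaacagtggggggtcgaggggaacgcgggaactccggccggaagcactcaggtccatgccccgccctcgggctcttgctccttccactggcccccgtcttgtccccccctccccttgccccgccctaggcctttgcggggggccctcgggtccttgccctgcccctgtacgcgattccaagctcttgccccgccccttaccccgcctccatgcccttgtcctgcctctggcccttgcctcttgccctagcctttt
A match of these letters describes the sequence and does not show that NRF2 binds there.

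Both genes called higher lie on chromosome 10, with probes 246.5 kb apart (mm7). Between them lie Cabin1, which was called higher, and Ggt5, Susd2, Ddt, Gstt3, Gstt1 and Gstt4, which were not called. Of 21 genes tested from 250 kb before the Ggt1 probe to 250 kb after the Gstt2 probe, 4 were called higher and 0 lower, against 4.59% called higher over all genes. Those 4 include Ggt1 and Gstt2, around which the interval was drawn because they were called, so the count is not a test of the region. The other called genes, Cabin1 at 0.36 ± 0.09 and, before Ggt1, Upb1 at 0.67 ± 0.14 (limma adjusted p = 0.0387 and 0.0274), were named after their values were seen, as was this interval, so the count is a description.

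**Figure D4:**
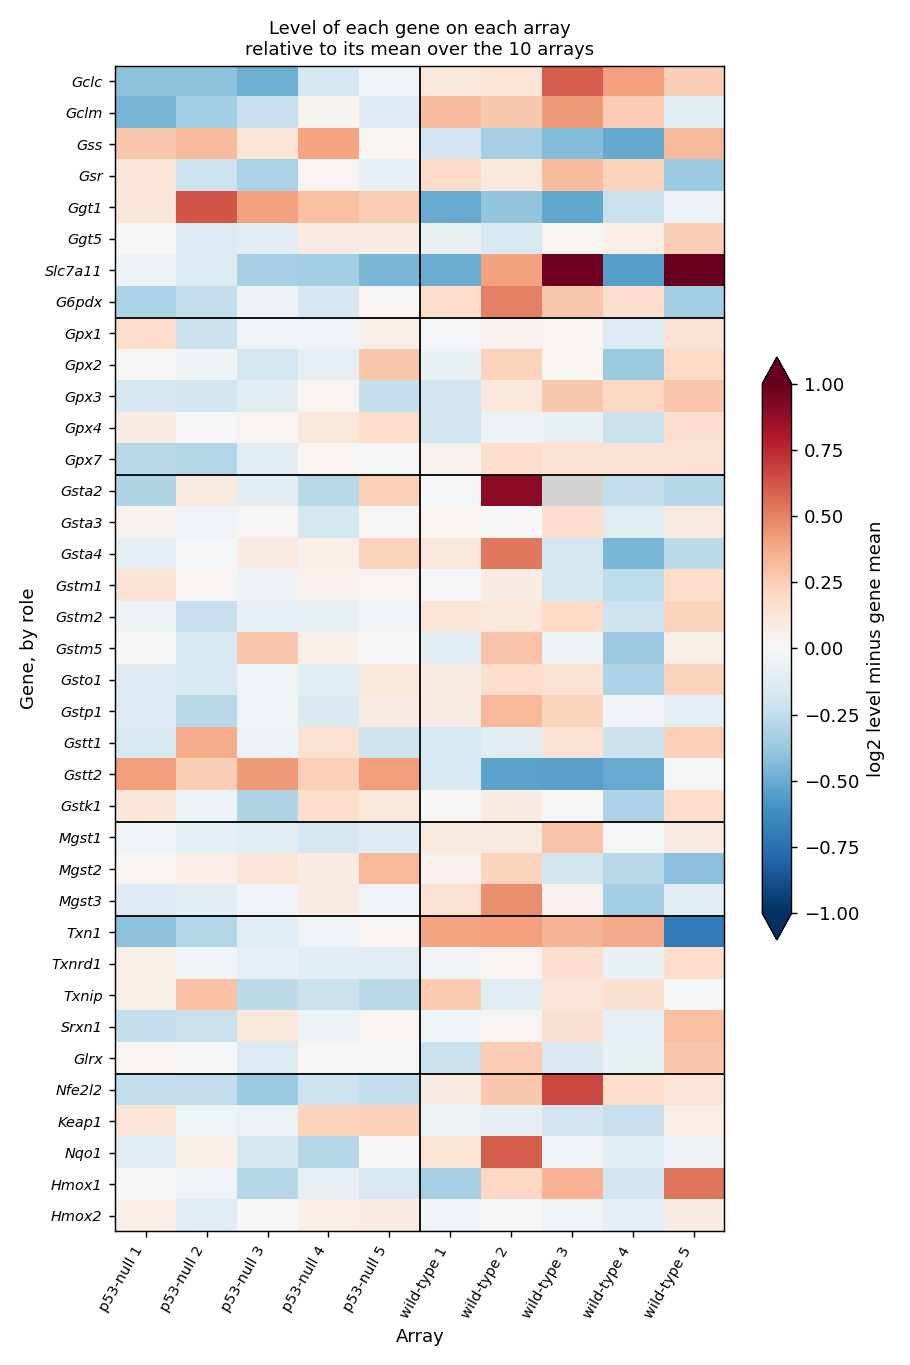
The level of each of the 37 genes on each array is shown as its log2 deviation from the gene's mean over the 10 arrays (colour scale limited to -1 to 1, grey for a spot left out), with p53-null arrays left of wild-type arrays and roles separated by lines. Gclc and Nfe2l2 are low and Ggt1 and Gstt2 high across the p53-null columns, while Gss, G6pdx, Gsr and Txn1 turn the other way in wild-type array 5.

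Single arrays weighed on these counts. The groups did not overlap for 6 of 37 genes (16.2%, against 9.32% of all genes tested, of which 5.45% higher and 3.88% lower): Gclc, Nfe2l2, Gpx7 and Mgst1 were lower and Ggt1 and Gstt2 higher on every p53-null array. The median SD over the 37 genes was 0.14 on p53-null arrays and 0.20 on wild-type arrays, or 0.16 without wild-type array 5. Without wild-type array 5, limma called 11 of 37 genes (29.7%, against 31.3% of all genes tested). These were Gclc, Gclm, Gsr, G6pdx, Mgst1, Txn1 and Nfe2l2, which were lower, and Gss, Ggt1, Gpx4 and Gstt2, which were higher. In that fit 6 of the 8 genes of synthesis, recycling and breakdown were called. Without p53-null array 3, limma called 0 of the 37, against 0.909% of all genes. In that fit 10 of the 37 had an unadjusted p under 0.05, against 4817 of 21116 genes tested. Without wild-type array 2 limma called Gstt2 only, against 1.77%. With p53-null array 1, 2 or 4 or wild-type array 3 or 4 removed, 2 of 37 were called, against 1.65%, 1.92%, 2.36%, 1.52% and 2.69% of all genes. The count was 3 without p53-null array 5 (1.58% of all genes) and 4 without wild-type array 1 (4.57%). Over these 10 fits Gstt2 was called in 9, Ggt1 in 7, and Gclc and Nfe2l2 in 3 each, and their adjusted p stayed at or below 0.0797 with no change of sign. Without the 3 arrays high in muscle markers 0 were called by limma, against 0.0474% of all genes. In that fit 6 of the 37 had an unadjusted p under 0.05, against 3480 of 21115 genes tested. The differences were then -0.78 for Gclc, -0.55 for Nfe2l2, 0.71 for Ggt1 and 0.67 for Gstt2.

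**Figure D5:**
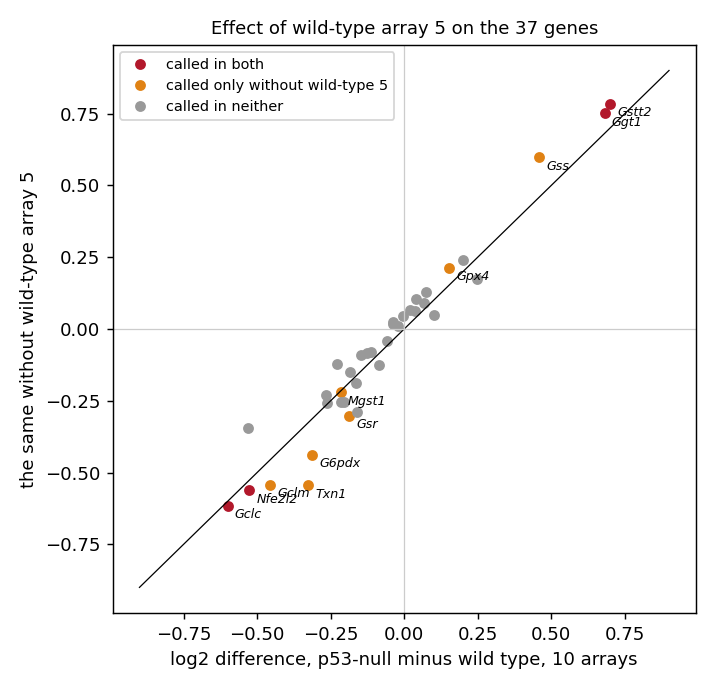
The log2 difference, p53-null minus wild type, over all 10 arrays (x axis) is set against the same difference without wild-type array 5 (y axis) for the 37 genes, with the line of equality. Txn1, Gclm, G6pdx, Gsr and Gss move away from 0 when the array is left out, and 7 genes not called over 10 arrays are called without it. In that fit 31.3% of all genes tested were called.

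The arrays came from 6 slides. Only slide 5 held both genotypes, as wild-type array 4 and p53-null array 2. On the other slides, genotype and slide cannot be told apart. Slide numbers fell into a lower range, with 4 p53-null and 3 wild-type arrays, and a higher range, with 1 p53-null and 2 wild-type arrays. With the range as a block, Gclc differed by -0.57 ± 0.13 (limma adjusted p = 0.0502), Nfe2l2 by -0.49 ± 0.11 (limma adjusted p = 0.0493), Ggt1 by 0.70 ± 0.13 (limma adjusted p = 0.0333) and Gstt2 by 0.66 ± 0.11 (limma adjusted p = 0.0306). Within the lower and the higher range the differences were -0.43 and -0.91 for Gclc and -0.42 and -0.67 for Nfe2l2. They were 0.59 and 1.001 for Ggt1 and 0.61 and 0.77 for Gstt2. All 4 kept their direction in both. Within the lower range limma called 0 of the 37, against 0.0758% of all genes. In that fit 5 of the 37 had an unadjusted p under 0.05, against 2565 of 21116 genes tested. The higher range rests on 1 p53-null array, so its differences are given without a test.

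Under other ways of processing, the count of the 37 genes is given beside the share of all genes called. With normexp, quantile or median scaling it was 4, 4 and 3, against 6.32%, 7.62% and 2.76% of all genes. With the GC trend of the probes removed it was 2 (3.33% of all genes), with no filter on dim genes 2 (1.94%), with a filter on all 10 arrays 5 (11.3%), and with the mean of all probes 3 (4.73%). With the GC trend removed or with no filter, the called genes were Ggt1 and Gstt2. Gclc and Nfe2l2 were not called with the GC trend removed (limma adjusted p = 0.071 and 0.129) or with no filter (limma adjusted p = 0.053 and 0.055). Slide as a random block gave 4 (5.5% of all genes), slide range as a block 3 (3.3%), and slide as a fixed block 0 by limma, where 0% of all genes were called. With the fixed block 2 of the 37 had an unadjusted p under 0.05, against 1134 of 21078 genes tested. The fixed slide block compares genotypes only on the slide that held both. Scan day as a block gave 2 (1.52%). That block equals leaving out wild-type array 3, since no other array shared its scan day. Trend and robust eBayes gave 4 (10.7%) and array weights 10 (31.7%).

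Markers of some other cell types moved with genotype too. Over all genes tested, 4.59% were called higher and 2.89% lower. The mean log2 level of 10 fibroblast markers was 2.83 to 2.97 on p53-null arrays, against 3.13 to 3.40 on wild-type arrays, with 4 of 10 called lower. For 11 neutrophil markers it was -1.59 to 0.03, against -2.67 to -2.19, with 7 called higher. For 8 B cell markers it was -0.29 to 0.77, against -1.94 to -0.87, with 7 called higher, and for 11 T and NK cell markers -1.25 to -0.77, against -2.09 to -1.37, with 6 called higher. The means of these 4 lists did not overlap between groups, and none of their tested markers was below background. The fibroblast markers Pdgfrb (0.17 ± 0.12) and Tcf21 (0.21 ± 0.18) went the other way and were not called. So did the neutrophil marker Ltf (-0.17 ± 0.23). The neutrophil markers Camp and Ngp spread widely on p53-null arrays, from -6.53 to -1.40 and from -6.98 to -2.56. Endothelial marker means overlapped at their edges, at 3.43 to 3.69 on p53-null arrays, against 3.68 to 3.87 on wild-type arrays, with 1 of 8 called lower. Of the alveolar type 1, type 2, club and ciliated cell markers limma called 0, and club cell marker means were 6.38 to 6.64 on p53-null arrays, against 6.19 to 6.81 on wild-type arrays. Macrophage means overlapped as well, at 1.91 to 2.14 on p53-null arrays, against 1.82 to 2.20 on wild-type arrays, but of 7 tested markers 1 was called higher (Csf1r, 0.56 ± 0.14, limma adjusted p = 0.0460) and 1 lower (Marco, -0.77 ± 0.17, limma adjusted p = 0.0331). The part of these cells in the differences of Gclc, Nfe2l2, Ggt1 and Gstt2 was not tested.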

How the data were processed

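Per the labels' protocols, total RNA of whole lung was labelled with Cy3 and put on Agilent arrays read in 1 colour. The submitters' processing notes name Agilent Feature Extraction 9.5, and the intensity values, as deposited, had background and spatial trend removed by that software, per the file headers. The deposited value table of the series held the same signals (largest difference 0).

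From there, each array's 43379 signals were divided by their 75th percentile before taking log2; outlier spots were dropped and repeat spots averaged. Of 41174 probes, 22951 were named by accession, 6659 by symbol and 3109 by synonym in a RefSeq table (GRCm38), and 8455 kept the array file's name. The brightest probe stood for its gene. Genes measured well above background on 5 or more arrays went into limma 3.58.1 (R 4.3.3; lmFit, eBayes), with no block. The code was tested on simulated data. Same-numbered arrays did not deviate together (correlations -0.22 to 0.001), so numbers do not pair arrays.

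Array values are given for called genes, the 6 next by p, 1 or more of each role, Nfe2l2 and Keap1, and for called genes of the second list. Members and lists were chosen with earlier results of these data known. Alternatives changed the background, scaling, filter, probe choice, blocks, variance model, array weights, GC trend and arrays used; within-range fits were added after seeing the data.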

Additional observations from a re-analysis of the deposited data

Results flagged for a closer look

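Single arrays far from the rest of their group were looked for with Dixon's ratio, which by chance picks about 1 group in 20. It picked 10 of 106 groups. For Txn1, wild-type array 5 read 3.32 and the next array 4.36. For Gpx7, wild-type array 1 read 0.44 and the next 0.55. For Gstm2, p53-null array 2 read 4.13 (next 4.28) and wild-type array 4 read 4.16 (next 4.48). For Glrx, p53-null array 3 read 1.43 (next 1.56), and for Nfe2l2 the same array read 3.74 (next 3.86). The mean of squamous markers was 1.70 on p53-null array 5 (next -4.02) and 2.91 on wild-type array 2 (next -3.86). That of skeletal muscle markers was 2.98 on wild-type array 2, where the next wild-type array had -2.14. That of B cell markers was 0.77 on p53-null array 1, with the next at 0.00. What sets these arrays apart was not tested.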

How the results depend on the processing

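Across 28 other settings the called genes kept their direction, where the series' value table repeats the reported values and the scan day block repeats the fit without wild-type array 3: Gclc ranged from -0.91 to -0.43 (called in 12), Nfe2l2 from -0.67 to -0.08 (12), Ggt1 from 0.52 to 1.001 (19), Gstt2 from 0.52 to 0.78 (22) and Maff from -0.85 to -0.48 (16). Of the members, 4 were called (7.49% of all genes), against 2 with the GC trend of the probes removed (3.33%) and 2 with no filter on dim genes (1.94%). Scan day as a block gave 2 (1.52%) and array weights 10 (31.7%). None (0) was called by limma with slide as a fixed block, without the 3 arrays high in muscle genes, or within the lower slide number range, chosen after seeing the data. There 0%, 0.0474% and 0.0758% of all genes were called. At an unadjusted p under 0.05 those fits gave 2, 6 and 5 members. Over all genes tested they gave 1134 of 21078, 3480 of 21115 and 2565 of 21116. The higher slide number range, with 1 p53-null array, is left out of these counts. Of the 52 other pathway genes tested, 1 was called. The count was 2 with normexp (6.32% of all genes), with a filter on all 10 arrays (11.3%) or with the mean of all probes (4.73%). It was 3 with trend and robust eBayes (10.7%) and 14 with array weights (31.7%). It was 0 by limma with the GC trend removed (3.33%), with the fixed slide block, without those 3 arrays or within the lower range. Those fits gave 9, 3, 3 and 5 at an unadjusted p under 0.05. With the GC trend removed, 4732 of 21116 genes tested had such a p. Leaving out 1 array gave 0 to 11 members and 0 to 12 other pathway genes, against 0.909% to 31.3% of all genes. With the replicate block 0 members and 0 other pathway genes were called by limma, against 0.123% of all genes, and no array correlated best with its own number. At an unadjusted p under 0.05 that fit gave 6 members and 5 other pathway genes, against 3998 of 21116 genes tested. All other settings gave counts within 1.5 times, and 22 members that were not called changed sign in at least 1 setting. The cause was not tested. All members were well above background on all 10 arrays.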
